A study of Mus musculus with 20 samples.

Results

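Metastases of a mouse bladder cancer model were compared with control bladder, gene by gene, on whole-transcript microarrays. The comparison held 9 of the 20 arrays of the series, 4 labelled metastasis (numbered 1 to 4) and 5 labelled control bladder (numbered 1, 2, 4, 5 and 6), and it covered the 30142 genes that could be named by 1 symbol. Samples were placed in their group by their labels alone. All values are intensities on the log2 scale, so that a difference of 1 is 2-fold.

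All mice were FVB/N and shared a genotype that includes Rbf/f and p107-/-, so the control mice carried these alleles too. Metastases came from mice in which bladder tumors had been started with an adenovirus that codes for Cre recombinase, an enzyme that deletes floxed DNA. Control bladders came from mice of the same genotype, and the labels do not say whether these received virus. The labels give the metastases as metastatic tumor and name neither the organ nor the animal. The p-values therefore measure how far these samples scatter, some of which may be technical scatter. RNA came from FFPE (formalin-fixed and paraffin-embedded) material.

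The bladder wall is a layer of smooth muscle lined by urothelium, a stratified epithelium whose surface cells make uroplakins, the membrane proteins of the urine barrier. A metastasis holds tumor cells together with cells of the organ it grows in and with immune cells, above all macrophages, which take up and digest debris with lysozyme and cathepsins. In a bulk sample, fewer cells of a type and less RNA per cell cannot be told apart.

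The 9 arrays were of 2 kinds. In metastasis 3 and 4 and in control bladder 4, 5 and 6, gene-wise departures from the mean of the 20 arrays were unlike those of any other array, with a highest correlation across genes of r = 0.14. They are called near-mean arrays here. The SD of these departures over genes was 0.29 to 0.31 in them, against 0.42 and 0.31 in metastasis 1 and 2 and 0.30 in each of control bladder 1 and 2. Metastasis 1 and 2 correlated with each other at r = 0.22, control bladder 1 and 2 at r = 0.61, and metastasis 1 with control bladder 1 and 2 at r = -0.19 and -0.28. Counts of calls and of the main lists are given over all arrays and without the near-mean arrays. The second form rests on 2 metastases and 2 control bladders, and those 2 pairs also differ in the sex-linked transcripts Xist, Uty and Eif2s3y, so that in it a difference of tissue and a difference of sex cannot be told apart. Array medians ran from 5.24 to 5.37 in metastasis and from 5.29 to 5.43 in control bladder. The mean of the chemosensory receptor genes was 4.85 ± 0.12 in metastasis (SD, n = 4) and 4.89 ± 0.04 in control bladder (n = 5).

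No gene passed over all arrays. limma, with Benjamini-Hochberg adjustment and a threshold of 0.05, called 0 of 30142 genes (0%). At an unadjusted level of 0.05, 943 genes (3.13%) were higher and 1203 (3.99%) lower in metastasis, against 1507.1 expected in all. Counts of 0 were also obtained with array weights, where 3899 genes were under the unadjusted level, and with a trended and robust prior, where 2143 were. Without the near-mean arrays limma called 5 genes (0.0166%), 4 higher in metastasis (0.0133%) and 1 lower (0.00332%). The balance of directions depended on the fit: it was 82 higher and 122 lower with these 2 groups alone, and 168 higher and 95 lower with array weights. The fit on the arrays outside the near-mean set that called 5 genes had 1260 genes (4.18%) higher and 983 (3.26%) lower at the unadjusted level. Means were higher in metastasis for 47.5% of all genes and lower for 52.5% in those arrays. In the near-mean arrays alone, means were higher for 45% and lower for 55%, and the groups did not overlap for 8.35% with metastasis higher and 11.8% with it lower. The differences were wider without the near-mean arrays as well. An absolute log2 difference of at least 1 was seen in 1135 genes (3.77%) between metastasis 1 and 2 and control bladder 1 and 2, but in 220 genes (0.73%) between metastasis 3 and 4 and control bladder 4, 5 and 6.

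**Figure D1:**
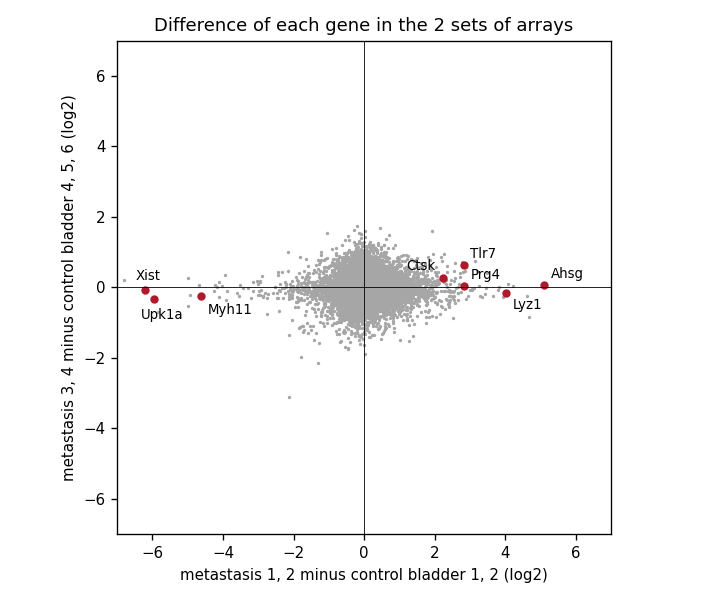
Each grey point is 1 of 30142 genes. The x axis is the log2 difference of metastasis 1 and 2 minus control bladder 1 and 2, and the y axis that of metastasis 3 and 4 minus control bladder 4, 5 and 6. Named genes in red lie far from 0 on the x axis, such as Ahsg at 5.10 and Xist at -6.20, and within a far narrower band on the y axis, where Ahsg lies at 0.08 and Xist at -0.06.

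The 4 genes that rose without the near-mean arrays were Ahsg, Lyz1, Prg4 and Ctsk. Ahsg codes for fetuin-A, a plasma protein made mainly by liver that keeps calcium phosphate in solution. It read 10.58, 10.39, 6.63 and 6.66 in metastasis 1 to 4, against 5.47, 5.31, 6.71, 6.79 and 6.21 in control bladder 1, 2, 4, 5 and 6. Metastasis 1 and 2 stood above all 5 controls, while metastasis 3 and 4 lay within the control range. The difference without the near-mean arrays was 5.10 (SE 0.31), or 34.2-fold, with an adjusted p of 0.000279 by limma; over all arrays it was 2.47 (SE 0.70), with an adjusted p of 0.676 by limma.

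Lyz1, a lysozyme that cuts bacterial cell walls, read 11.03, 10.61, 7.67 and 7.70 in metastasis, against 7.02, 6.56, 8.12, 7.75 and 7.61 in control bladder. Again the first 2 metastases were above every control and the other 2 within their range. It differed by 4.03 (SE 0.32), or 16.3-fold, without the near-mean arrays, with an adjusted p of 0.00147 by limma. Lyz1 and Lyz2 are near-identical neighbours, and the probes may not tell them apart. Prg4, lubricin, a lubricating proteoglycan of joints and serous surfaces, read 7.59, 7.82, 6.03 and 5.76 in metastasis, against 4.89, 4.86, 5.75, 5.95 and 5.82 in control bladder. The difference without the near-mean arrays was 2.83 (SE 0.23), with an adjusted p of 0.00147 by limma. Ctsk, cathepsin K, the protease with which osteoclasts degrade collagen and which activated macrophages and fibroblasts can also make, read 7.64, 7.94, 6.49 and 5.73 in metastasis, against 5.68, 5.40, 5.51, 5.87 and 6.17 in control bladder. For Ctsk the first 3 metastases stood above every control. The difference was 2.25 (SE 0.18), with an adjusted p of 0.00147 by limma.

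Over all arrays none of these passed, at log2 differences of 1.84 for Lyz1, 1.34 for Prg4 and 1.22 for Ctsk. Each of the 5 calls, Xist included, held when 1 bladder tumor or treated bladder array was also left out. Such a fit changes the spread but cannot change the difference. Leaving out a metastasis or a control bladder left a single array in that group, so only the size of the difference can be read there. Over these fits it ran from 5.00 to 5.19 for Ahsg, 3.80 to 4.26 for Lyz1 and 2.72 to 2.94 for Prg4. For Ctsk it ran from 2.10 to 2.41, and for Xist from -6.35 to -6.06. Other arrays of the series show where these levels stand. In the 4 bladder tumors outside the near-mean set Ahsg read 5.16 to 6.15, Lyz1 6.45 to 7.43, Prg4 5.25 to 5.91 and Ctsk 5.47 to 5.81, all below metastasis 1 and 2. The single metastasis of a mouse treated with CM272 and cisplatin (CDDP) read 9.50 for Ahsg, 9.63 for Lyz1 and 7.25 for Prg4, above every control, and 5.88 for Ctsk, within the control range.

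**Figure D2:**
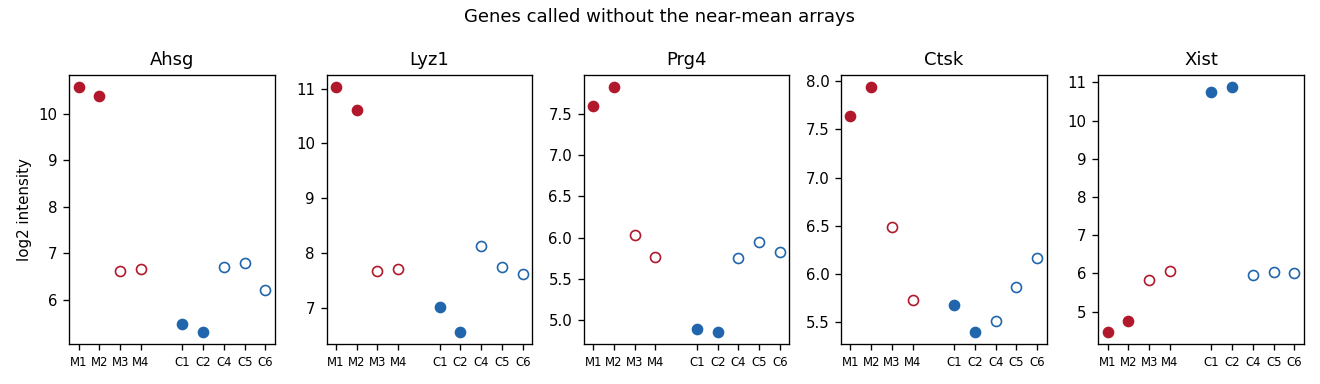
Log2 intensity of Ahsg, Lyz1, Prg4, Ctsk and Xist in metastasis (M1 to M4, red) and control bladder (C1 to C6, blue). Open circles are near-mean arrays. The filled red and blue points are apart for all 5 genes, and the open ones of both groups lie between them, except for Ctsk in control bladder 4, which at 5.51 is below control bladder 1 at 5.68.

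The fifth call was Xist, a long noncoding RNA made from the inactive X of female cells, at -6.20 (SE 0.26), with an adjusted p of 1.2e-05 by limma. It read 4.47, 4.76, 5.82 and 6.06 in metastasis, against 10.76, 10.88, 5.95, 6.04 and 6.02 in control bladder. Control bladder 1 and 2 alone were high. The Y-linked gene Uty read 6.75, 6.53, 5.96 and 5.72 in metastasis, against 5.14, 5.28, 5.85, 5.93 and 5.95 in control bladder. Eif2s3y, also Y-linked, read 6.65, 6.43, 5.73 and 5.86 in metastasis, against 5.02, 5.03, 5.87, 5.53 and 6.09 in control bladder. The part of sex in the other differences was not tested.

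Rb1 and Rbl1, which codes for p107, are engineered in these mice. Rbl1 read 8.28, 6.37, 6.59 and 6.72 in metastasis, against 6.33, 6.28, 6.47, 6.83 and 6.63 in control bladder. Metastasis 1 alone stood apart, and the difference over all arrays was 0.49 (SE 0.30), with an adjusted p of 0.754 by limma. Rb1 averaged 6.05 ± 0.20 in metastasis (SD, n = 4) and 6.18 ± 0.19 in control bladder (n = 5). The sources do not say whether the probes lie in the deleted parts, so these values check no genotype. Ehmt2, which codes for the histone methyltransferase G9a, averaged 6.83 ± 0.16 in metastasis and 6.80 ± 0.14 in control bladder. Dnmt1, the maintenance DNA methyltransferase, read 8.32, 7.13, 7.36 and 7.18 in metastasis, against 6.74, 6.61, 7.21, 7.32 and 7.29 in control bladder. Of the 10 measured genes of the G9a and DNA methyltransferase network, 6 were above both controls in metastasis 1 and 2, against 22.5% of all genes, and none passed.

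Smooth muscle genes were lower in metastasis. All 19 measured members had lower means over all arrays, where 52.9% of all genes did, and the median difference was -1.01, against -0.01 over all genes. In 5 of the 19, every metastasis was below every control bladder, which held for 1.95% of all genes. In metastasis 1 and 2 all 19 were below both controls, against 25% of all genes, with a median of -2.28. None of the 19 passed in either form. The spread between arrays of the other groups enters the test. Among the bladder tumors outside the near-mean set, Acta2 read 6.16, 6.79, 5.94 and 12.16 in tumor 1, 2, 6 and 7. Bladder tumor 7 alone was high. With it also left out, the fit without the near-mean arrays called 64 genes (0.212%), 50 of them lower in metastasis.

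Myh11, the smooth muscle myosin, read 5.34, 5.29, 6.96 and 6.95 in metastasis, against 10.04, 9.86, 7.10, 7.28 and 7.21 in control bladder. The groups did not overlap, though metastasis 3 and 4 lay just under control bladder 4. The difference was -2.16 (SE 1.03) over all arrays and -4.63 (SE 1.76) without the near-mean arrays, with adjusted p of 0.703 and 0.591 by limma. Tagln, transgelin, which binds actin, read 5.74, 5.53, 7.24 and 7.26 in metastasis, against 9.86, 9.62, 7.68, 7.61 and 7.26 in control bladder. Acta2, smooth muscle actin, read 6.38, 7.11, 7.73 and 8.06 in metastasis, against 10.97, 11.06, 8.14, 7.80 and 8.01 in control bladder. Pcp4, a calmodulin regulator, Kcnmb1, a subunit of the calcium-activated potassium channel, and Hspb6, a small heat shock protein of muscle, had the smallest p of the list. They differed by -1.51, -0.73 and -0.29 over all arrays, with adjusted p of 0.686, 0.689 and 0.677 by limma.

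**Figure D3:**
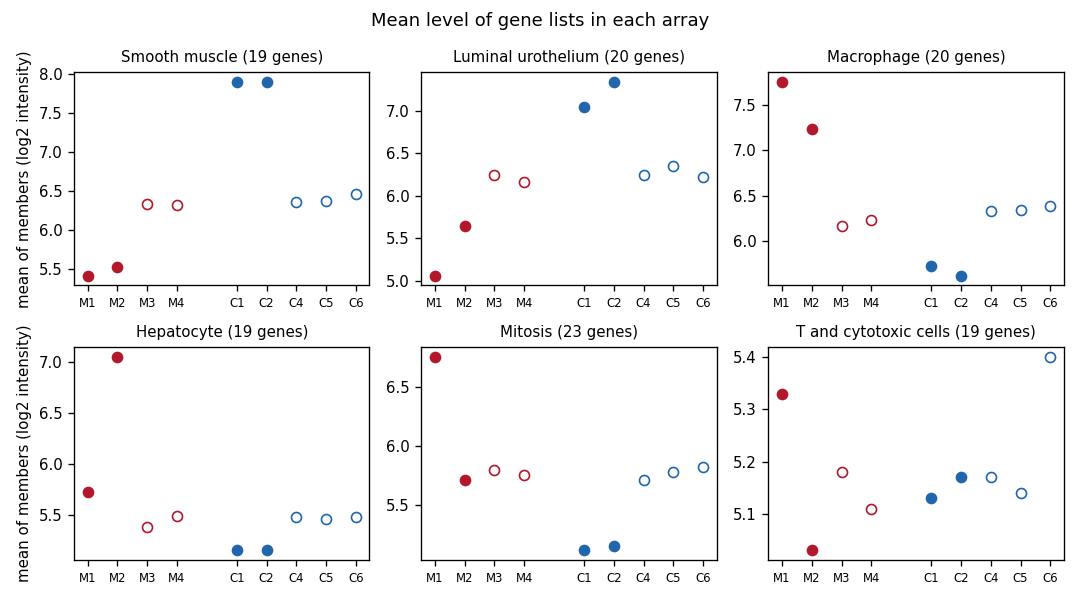
Mean log2 intensity over the members of 6 gene lists in each array, with metastasis (M, red) left of control bladder (C, blue) and near-mean arrays as open circles; each panel has its own axis. Smooth muscle and luminal urothelium read lowest in M1 and M2 (5.42 and 5.53 for smooth muscle) and highest in C1 and C2 (7.90 and 7.90), and for these lists open circles of both groups share a narrow range.

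Urothelial genes gave the same picture. Of 20 luminal genes, 18 had lower means over all arrays, with a median of -0.59, and 18 were below both controls in metastasis 1 and 2, against 25% of all genes, with a median of -1.23. Upk1a, a uroplakin, read 5.31, 5.84, 7.87 and 7.42 in metastasis, against 10.96, 12.08, 8.02, 8.11 and 7.83 in control bladder. Upk3a, another uroplakin, read 4.55, 4.79, 6.82 and 6.93 in metastasis, against 9.30, 10.02, 6.60, 6.64 and 6.58 in control bladder. Without the near-mean arrays they differed by -5.95 (SE 2.31) and -4.99 (SE 1.96), with adjusted p of 0.601 and 0.607 by limma. The 3 members with the smallest p were Cldn4, a tight junction protein (-1.67 over all arrays), Epcam, an epithelial adhesion molecule (-0.36), and Elf3, an epithelial transcription factor (-0.48), with adjusted p of 0.676, 0.676 and 0.686 by limma. For Cldn4 every metastasis, at 4.65, 4.55, 6.04 and 5.59, was below every control bladder, at 7.26, 7.41, 6.40, 6.64 and 6.66.

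The 2 metastases outside the near-mean set differed in some epithelial genes, while Upk1a, Upk3a and Cldn4, given above, read low in both. Upk1b, a partner of uroplakin 3, read 8.52 in metastasis 1 and 11.59 in metastasis 2, against 12.40 and 12.67 in control bladder 1 and 2. Krt18, a simple epithelial keratin, read 4.47 in metastasis 1 and 6.30 in metastasis 2, against 8.31 and 8.33 in control bladder 1 and 2. Upk3b, a uroplakin that mesothelium also makes, read 5.71 in metastasis 1 and 7.90 in metastasis 2, against 5.99 and 6.34 in control bladder 1 and 2. Among the 17 basal and squamous genes, 10 were below both controls in metastasis 1 and 2 and none above, against 25% and 22.5% of all genes, with a median of -0.17. Krt5, the basal keratin, read 4.93, 5.31, 6.33 and 6.60 in metastasis, against 8.08, 8.16, 6.70, 6.58 and 6.76 in control bladder. Ivl, involucrin, a protein of the cornified envelope, differed by -5.83 (SE 2.40) without the near-mean arrays, with an adjusted p of 0.632 by limma. Trp63, the transcription factor of basal epithelial cells, differed by -0.73 over all arrays, with an adjusted p of 0.676 by limma. Control bladder 1 and 2 read higher for Upk1a, Upk3a, Krt18, Krt5 and Myh11 than control bladder 4, 5 and 6. For Krt18 and Krt5 metastasis 3 and 4 overlapped with control bladder 4, 5 and 6, and for Upk3a they were slightly above them, opposite to the other arrays.

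Macrophage genes were higher in metastasis 1 and 2. Of 20 members, 18 were above both controls there, against 22.5% of all genes, with a median of 1.49, and 1, Lyz1, passed. Over all arrays 19 had higher means, with a median of 0.58, against 47.1% of all genes, but in none was every metastasis above every control. Between metastasis 3 and 4 and control bladder 4, 5 and 6 the median was -0.13. Lyz2, the macrophage lysozyme, read 12.75, 12.61, 9.27 and 9.39 in metastasis, against 8.30, 7.84, 9.18, 9.59 and 9.92 in control bladder. C1qb, a chain of complement C1q, read 10.53, 8.17, 6.09 and 5.90 in metastasis, against 4.82, 4.51, 6.65, 7.46 and 6.41 in control bladder. Their differences without the near-mean arrays were 4.61 (SE 0.99) and 4.68 (SE 0.91), with adjusted p of 0.302 and 0.249 by limma.

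Further genes, several of them of phagocytes, did not pass without the near-mean arrays. Ctss, cathepsin S, a protease that prepares antigens for MHC class II, read 8.17 and 7.97 in metastasis 1 and 2, against 4.85 and 4.70 in control bladder 1 and 2, with an adjusted p of 0.0873 by limma. Cd68, a lysosomal membrane protein, read 8.02 and 8.14, against 5.69 and 5.36, with an adjusted p of 0.114 by limma. Mmp12, macrophage elastase (1.26, adjusted p = 0.112 by limma), Inpp5d, the phosphatase SHIP1 (1.59, 0.128), Rassf2 (1.26, 0.112) and Anxa3, an annexin (1.28, 0.114), completed the positive differences with the smallest p. Itgam, the integrin chain CD11b, separated the 2 metastases, at 8.60 in metastasis 1 and 6.78 in metastasis 2, against 5.11 and 4.96 in control bladder 1 and 2. Gpnmb, a glycoprotein of lysosome-rich macrophages, read 5.53 in metastasis 1 and 8.73 in metastasis 2, against 7.14 and 6.63 in control bladder 1 and 2.

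PU.1, a transcription factor of the myeloid lineage, binds sites with the core GAGGAA. That core, on either strand, lay in the promoter window of 8 of 14 macrophage list genes with a window (57.1%), against 31.3% of 27025 genes; the window runs from 250 bases before to 50 bases after the start, from RefSeq, build GRCm38.p6. Stretches of 150 bases before the start are shown for 2 genes in which they hold the core. They are Itgam (chr7:128062490-128062639, plus strand) and C1qb (chr4:136886201-136886350, minus strand), both far above the controls in metastasis 1. Cd68 was searched as well, and no such stretch was found for it. Capitals mark the core or its reverse complement. A match is a description of letters, not a binding site.
Itgam: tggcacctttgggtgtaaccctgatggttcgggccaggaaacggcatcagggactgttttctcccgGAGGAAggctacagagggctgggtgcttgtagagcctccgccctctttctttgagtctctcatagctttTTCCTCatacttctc
C1qb: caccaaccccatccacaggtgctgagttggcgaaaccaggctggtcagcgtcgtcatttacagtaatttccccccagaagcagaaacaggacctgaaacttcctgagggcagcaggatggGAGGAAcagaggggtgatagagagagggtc

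The bone list held the other 2 called genes, Prg4 and Ctsk. Acp5, the acid phosphatase of osteoclasts and macrophages, read 6.24, 6.38, 5.63 and 5.53 in metastasis, against 5.27, 5.34, 5.46, 5.48 and 5.65 in control bladder. Mmp9, gelatinase B, differed by 1.72 without the near-mean arrays, with an adjusted p of 0.143 by limma. The osteoclast markers Atp6v0d2 and Calcr differed by 1.06 and 0.44 there. Bglap, osteocalcin, a product of osteoblasts, differed by -0.77. Over the 17 members of the list the median was 0.05.

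Hepatocyte genes separated the metastases from each other. Over the 19 members the mean level was 5.72 in metastasis 1, 7.05 in metastasis 2, 5.38 in metastasis 3 and 5.49 in metastasis 4, against 5.15 to 5.48 in control bladder. Metastasis 2 alone was high for the fibrinogen chains and albumin. Fgg, the fibrinogen gamma chain, read 4.40, 10.49, 5.06 and 4.87 in metastasis, against 4.52, 4.49, 5.10, 5.39 and 5.10 in control bladder. Alb, albumin, read 5.06, 9.53, 5.80 and 5.57 in metastasis, against 5.20, 5.28, 6.16, 5.69 and 5.65 in control bladder. Fgb, the beta chain, read 9.75 and Hpx, the haem carrier hemopexin, 8.31 in metastasis 2, against at most 5.56 and 5.13 in control bladder.

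Other liver genes differed less in metastasis 2. Apoa1, the main protein of HDL, read 4.50, 5.49, 4.84 and 5.16 in metastasis, against 4.57, 4.62, 4.47, 4.57 and 4.77 in control bladder. Metastasis 2, 3 and 4 were above every control by small margins. Ttr, transthyretin, read 5.36 in metastasis 2, within the control range of 5.15 to 5.98, and Fabp1, a liver fatty acid binding protein, differed by -0.31 without the near-mean arrays. A second pattern was shared by metastasis 1 and 2: Ahsg, described above, and Trf, the iron carrier transferrin, at 11.92, 11.35, 8.61 and 8.99 in metastasis, against 8.22, 8.51, 8.76, 8.83 and 8.64 in control bladder. Hp, haptoglobin, which binds haemoglobin, read 8.37, 9.23, 7.45 and 7.06 in metastasis, against 6.35, 6.34, 6.58, 7.11 and 7.78 in control bladder. Trf and Hp differed by 3.27 (SE 0.75) and 2.45 (SE 0.37) without the near-mean arrays, with adjusted p of 0.343 and 0.128 by limma. Cyp2e1, a cytochrome P450 of liver and fat, was high in metastasis 1 alone, at 8.81, against 6.26 in metastasis 2 and 5.89 to 6.28 in control bladder. Of the 19 members 4 were above both controls in metastasis 1 and 2, or 21.1% beside 22.5% of all genes.

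**Figure D4:**
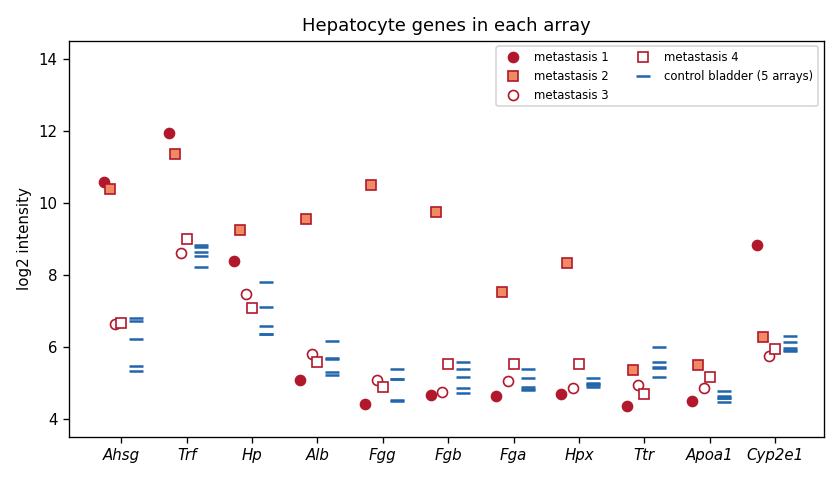
Log2 intensity of 11 hepatocyte genes in the 4 metastases (red symbols, near-mean arrays open) and the 5 control bladders (blue dashes). Metastasis 2 stands apart for Alb, Fgg, Fgb, Fga and Hpx, metastasis 1 for Cyp2e1, and both for Ahsg and Trf, while Ttr of metastasis 2, at 5.36, lies within the control range.

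Markers of other organs gave 1 further group. The mesothelium, the lining of the body cavities, had 5 of its 7 markers above both controls in metastasis 1 and 2, against 22.5% of all genes, with a median of 0.64. Wt1, the Wilms tumor transcription factor, read 6.95, 7.19, 5.28 and 5.40 in metastasis, against 4.50, 4.73, 5.56, 5.49 and 5.26 in control bladder. Lrrn4, a leucine-rich repeat protein, read 6.75, 8.36, 6.45 and 6.02 in metastasis, against 4.88, 5.09, 5.91, 5.75 and 6.23 in control bladder. They differed by 2.46 and 2.57 without the near-mean arrays, with adjusted p of 0.214 and 0.463 by limma. Both also read above every control in bladder tumor 2, at 6.24 for Wt1 and 7.41 for Lrrn4, but not in bladder tumor 1, 6 or 7. Msln, mesothelin, read 4.57 and 5.45 in metastasis 1 and 2, against 4.36 and 4.45 in control bladder 1 and 2. The part of other cell types in the results above was not tested.

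Lists of lung epithelium, kidney, gut and pancreas, nerve and neuroendocrine cells had medians from -0.17 to 0.09 without the near-mean arrays, and none of their members passed. Below both controls were 50% of lung, 45.5% of kidney, 50% of gut and pancreas, 33.3% of nerve and 12.5% of neuroendocrine genes, against 25% of all genes. Above both were 7.14%, 0%, 0%, 0% and 37.5%, in the same order, against 22.5%. Sftpc, the surfactant gene of lung alveoli, read 4.40, 4.97, 4.78 and 4.93 in metastasis, against 4.78, 5.02, 4.75, 5.52 and 4.63 in control bladder. The groups overlapped. Striated muscle (-0.05) and adipocyte genes (0.08) likewise had medians near 0. The adipocyte list nevertheless separated the 2 metastases. Its mean level was 6.33 in metastasis 1 and 5.38 in metastasis 2, against 5.64 to 5.95 in control bladder. Car3, a carbonic anhydrase of fat and muscle, read 7.57 and 4.60 in metastasis 1 and 2, against 8.11 and 7.78 in control bladder 1 and 2.

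Cell cycle genes were higher in metastasis, mostly in metastasis 1. Of 23 mitosis genes, 22 had higher means over all arrays, with a median of 0.44, and all 23 were above both controls in metastasis 1 and 2, against 22.5% of all genes, with a median of 0.98. The mean level of the list was 6.76, 5.71, 5.80 and 5.75 in metastasis, against 5.11, 5.15, 5.71, 5.78 and 5.82 in control bladder. Metastasis 1 was the high array, and metastasis 2 exceeded control bladder 1 and 2 and lay at or below 4, 5 and 6. All 25 replication genes had higher means over all arrays, with a median of 0.35; 22 were above both controls in metastasis 1 and 2, against the same 22.5%, with a median of 0.80. No member of either list passed in either form. Between metastasis 3 and 4 and control bladder 4, 5 and 6 the medians were 0.02 and -0.01.

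Mki67, the proliferation marker Ki-67, read 9.31, 6.73, 6.57 and 6.66 in metastasis, against 4.94, 5.01, 6.85, 6.42 and 6.77 in control bladder. Top2a, the topoisomerase that untangles chromosomes, read 8.31, 6.12, 6.32 and 6.57 in metastasis, against 5.05, 5.18, 6.22, 6.51 and 6.05 in control bladder. In the fit without the near-mean arrays they differed by 3.05 (SE 1.03) and 2.10 (SE 0.92), with adjusted p of 0.547 and 0.663 by limma. By p over all arrays the leading members were Nek2, a centrosome kinase (0.42), Birc5, survivin (0.39), and Ccna2, cyclin A2 (0.90), with adjusted p of 0.676 each by limma. In replication they were Rrm1, the large subunit of ribonucleotide reductase (0.91), Cdt1, which licenses origins (0.29), and Mcm2, a subunit of the replicative helicase (0.55), with adjusted p of 0.676 each by limma. Rrm1 read 7.48, 6.78, 6.09 and 6.42 in metastasis, against 5.53, 5.37, 6.18, 5.63 and 6.21 in control bladder.

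Promoters of these genes are known to carry 2 elements that repress them outside the cycle. The CHR element, TTTGAA, on either strand, lay in the window of 14 of 19 mitosis genes with a window (73.7%) and 4 of 20 replication genes (20%), against 20.2% of 27025 genes. The E2F site, searched as TTTCCCGC or TTTGGCGC on either strand, lay in 0 of 19 mitosis genes and 8 of 20 replication genes (40%), against 1.8% of all genes. Stretches of 150 bases before the start are shown for members of both lists, with the element or its reverse complement in capitals, from RefSeq, build GRCm38.p6. They are Mki67 (chr7:135716380-135716529, minus strand), Top2a (chr11:99024190-99024339, minus strand), Mcm6 (chr1:128359706-128359855, minus strand) and Mcm5 (chr8:75109359-75109508, plus strand). Mki67 holds 2 CHR matches and Mcm6 2 E2F matches, Top2a and Mcm5 1 each.
Mki67: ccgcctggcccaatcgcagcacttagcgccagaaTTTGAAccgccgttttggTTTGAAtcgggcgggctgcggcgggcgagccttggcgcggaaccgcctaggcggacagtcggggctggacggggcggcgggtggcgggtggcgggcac
Top2a: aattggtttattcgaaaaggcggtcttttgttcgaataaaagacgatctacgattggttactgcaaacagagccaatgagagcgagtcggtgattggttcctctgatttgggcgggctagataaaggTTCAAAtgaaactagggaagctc
Mcm6: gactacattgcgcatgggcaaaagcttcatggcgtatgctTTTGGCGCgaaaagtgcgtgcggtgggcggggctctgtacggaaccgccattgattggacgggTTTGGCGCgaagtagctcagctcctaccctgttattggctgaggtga
Mcm5: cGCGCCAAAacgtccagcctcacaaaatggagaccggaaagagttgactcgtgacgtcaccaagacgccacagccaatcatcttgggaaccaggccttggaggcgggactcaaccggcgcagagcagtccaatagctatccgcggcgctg

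Mcm6 read 6.85, 5.91, 5.32 and 5.80 in metastasis, against 4.64, 4.49, 5.85, 5.70 and 5.39 in control bladder. Mcm5 read 6.24, 5.92, 5.70 and 5.91 in metastasis, against 5.13, 5.30, 5.77, 5.87 and 5.76 in control bladder. Both helicase subunits were above control bladder 1 and 2 in every metastasis and overlapped with control bladder 4, 5 and 6.

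**Figure D5:**
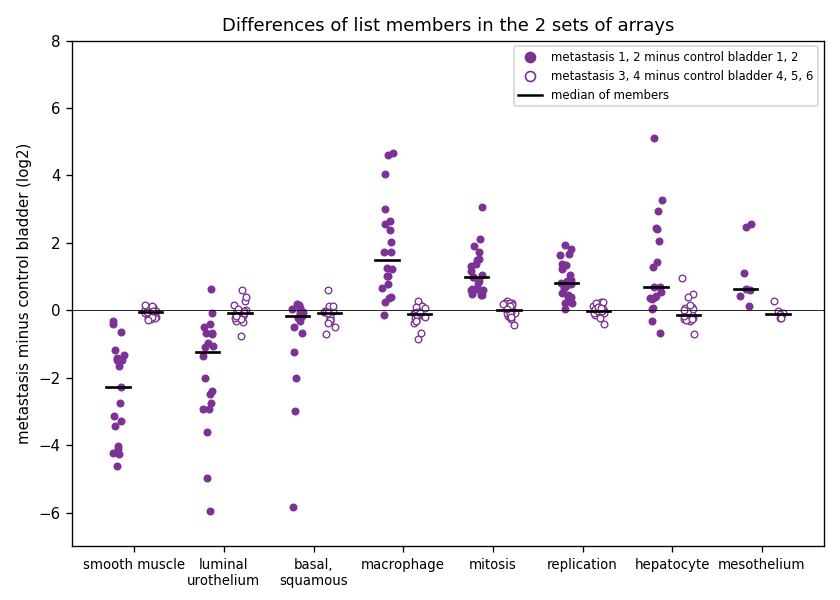
Log2 difference of each member of 8 gene lists, metastasis minus control bladder, in the arrays outside the near-mean set (filled) and in the near-mean arrays (open); black bars are medians. Filled points run down to -5.95 in luminal urothelium and up to 5.10 in hepatocyte genes, and the open points of all 8 lists have medians from -0.15 to 0.02.

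Lymphocyte lists had medians near 0. T cell and cytotoxic genes had a median of -0.00 in both forms, with 3 of 19 above and 3 below both controls in metastasis 1 and 2 (15.8% each), against 22.5% and 25% of all genes. Their 3 smallest p belonged to Nkg7, a cytotoxic granule protein (-0.42 over all arrays), Ifng, interferon gamma (-0.49), and Cd4 (-0.26), with adjusted p of 0.676, 0.676 and 0.679 by limma. For Ifng every metastasis, at 4.28, 4.40, 4.22 and 4.14, was below every control bladder, at 4.81, 4.44, 4.53, 4.65 and 5.32. The nearest values of the groups were 4.40 and 4.44. All metastasis values and most control values were under the mean of the chemosensory receptor genes (4.85 and 4.89). B and plasma cell genes had a median of -0.02 and checkpoint genes one of 0.07 without the near-mean arrays. Pdcd1, PD-1, read 5.73, 5.14, 5.60 and 5.49 in metastasis, against 5.11, 5.25, 5.06, 5.10 and 5.44 in control bladder. Of 26 interferon-stimulated genes, 10 were above both controls in metastasis 1 and 2 and 4 below, against 22.5% and 25% of all genes. Cxcl9, a chemokine induced by interferon gamma, read 7.44, 4.94, 5.93 and 6.19 in metastasis, against 4.83, 5.19, 5.24, 5.45 and 5.70 in control bladder.

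Genes of MHC and antigen processing had higher means over metastasis 1 and 2 in 15 of 15 members, mostly through metastasis 1. The median was 0.19, and 6 were above both controls, against 22.5% of all genes. The mean level of the list was 7.24 in metastasis 1 and 6.50 in metastasis 2, against 6.36 to 6.54 in control bladder. The class I genes H2-D1 and H2-K1 led the list. H2-D1 read 9.48, 8.06, 7.94 and 7.78 in metastasis, against 7.46, 7.25, 7.90, 7.69 and 7.95 in control bladder. These 2 class I genes share sequence, and the probes may not tell them apart. In the neutrophil list 12 of 16 genes were above both controls in metastasis 1 and 2, against 22.5% of all genes, with a median of 0.39. S100a9, an alarmin of neutrophils, read 8.40, 7.79, 7.66 and 7.38 in metastasis, against 4.35, 4.85, 7.41, 5.70 and 8.21 in control bladder. The controls ran from 4.35 to 8.21, and metastasis 1 alone was above them all.

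Hypoxia and glycolysis genes had higher means in all 17 members in metastasis 1 and 2, with 12 above both controls, against 22.5% of all genes, and a median of 0.45. Pgk1, a glycolytic kinase, read 8.77, 7.84, 7.37 and 6.57 in metastasis, against 5.61, 5.54, 6.19, 6.42 and 7.11 in control bladder, and had an adjusted p of 0.676 over all arrays by limma. Matrix genes differed in both directions: 3 of 16 were above both controls and 6 below, against 22.5% and 25% of all genes, with a median of 0.02. Fn1, fibronectin, read 11.83, 9.93, 9.35 and 8.99 in metastasis, against 8.90, 8.70, 9.09, 9.37 and 9.44 in control bladder. Postn, periostin, read 6.74, 7.16, 8.02 and 7.78 in metastasis, against 9.08, 8.60, 7.75, 8.34 and 7.90 in control bladder. Cdh2, N-cadherin, differed by 1.78 without the near-mean arrays, with an adjusted p of 0.143 by limma, and read 7.46, 7.16, 6.22 and 6.02 in metastasis, against 5.46, 5.60, 5.81, 6.08 and 6.08 in control bladder. Snai1, a repressor of E-cadherin, differed by -0.35. Among 13 endothelial genes, 7 were below both controls in metastasis 1 and 2, against 25% of all genes, with a median of -0.37, and Tek, the angiopoietin receptor, differed by -1.03, with an adjusted p of 0.173 by limma.

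Of the 20 genes with the smallest p over all arrays, 10 in each direction, the groups did not overlap in 18, which a choice by small p largely fixes; they overlapped for Pstk, among others. Zfp354b, a zinc finger gene, read 4.93, 5.03, 5.16 and 5.05 in metastasis, against 5.57, 5.71, 5.95, 5.94 and 6.01 in control bladder. Over all genes the groups did not overlap for 0.995% with metastasis higher and 1.95% with it lower. Its difference was -0.79 (SE 0.14), with an adjusted p of 0.532 by limma. Hspa13, a stress protein of the endoplasmic reticulum, read 6.41, 6.29, 6.37 and 6.07 in metastasis, against 5.72, 5.60, 5.67, 5.86 and 5.88 in control bladder, and differed by 0.54 (SE 0.10), with an adjusted p of 0.532 by limma. Tlr7, the endosomal receptor for single-stranded RNA, read 8.86, 9.20, 7.28 and 7.83 in metastasis, against 6.19, 6.22, 6.74, 6.92 and 7.06 in control bladder, and differed by 1.67 (SE 0.36), with an adjusted p of 0.627 by limma. It is X-linked, as is Xist. Irf8, a transcription factor of myeloid cells, read 6.58, 6.30, 6.33 and 6.15 in metastasis, against 5.92, 5.91, 5.94, 5.87 and 5.92 in control bladder.

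The other positive differences with the smallest p were Cep76 (0.45), Glipr1 (0.67), Fbxo4 (0.62), Ccdc14 (0.42), Gatad2a, a part of the NuRD complex (0.46), and Wipf3 (0.55). The other differences below 0 were Siglech, a lectin of plasmacytoid dendritic cells (-0.44), Scube1 (-0.51), Alyref2 (-0.63), Slc40a1, the iron exporter ferroportin (-0.47), Zfp94 (-0.34), Pstk (-0.61), Fbxl22 (-0.51), Esp23 (-0.67) and Krtap5-2 (-0.61). Their adjusted p by limma ran from 0.627 to 0.676. Without the near-mean arrays, the differences below 0 with the smallest p after Xist were Ptch1, the Hedgehog receptor (-2.53, adjusted p = 0.0766 by limma), Avpr1a, a vasopressin receptor (-3.95, 0.143), Cachd1 (-0.99, 0.143), Fbxl7 (-1.13, 0.158), Zfp72 (-1.32, 0.158), Ecm2 (-1.39, 0.173), Dbp, a clock output gene (-1.35, 0.173), and Cped1 (-2.14, 0.173). Ptch1 read 5.88 and 5.69 in metastasis 1 and 2, against 8.47 and 8.15 in control bladder 1 and 2.

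The genes that stood highest above the controls differed between the metastases. In metastasis 1 they included Gstm2, a glutathione transferase, at 12.00 against at most 7.80 in control bladder, Cst12, a cystatin, at 8.83 against at most 4.82, Cxcl13, the chemokine that attracts B cells, at 12.69 against at most 8.72, and Tmem255a at 9.49 against at most 5.80. In metastasis 2 the liver genes above led. In metastasis 3 and 4 the leading genes stood less far out. Defb40, a defensin, read 6.45 in metastasis 3 against at most 5.44 in control bladder. Sprr2g, a small proline-rich protein, read 4.90 and 4.97 in metastasis 3 and 4 against at most 4.01. All Sprr2g values of these groups lay near or under the mean of the chemosensory receptor genes (4.85 and 4.89). Ccl8, a monocyte chemokine, read 9.10 in metastasis 4 against at most 7.26. Ccl8 read 10.80 in metastasis 1 and 5.80 in metastasis 2.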

How the data were processed

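Per the submitters' processing notes, the arrays were processed by RMA in Affymetrix Expression Console, and the deposited values are log2 intensities; no tool version is given. Formalin-fixed tissue can yield fragmented RNA, and signal over background and the number of arrays limit precision. Of 65956 measured rows, 30604 had 1 symbol, 2146 several and 33206 none here; 22818 were looked up by gene ID, and for 355 genes with several rows the one with the highest mean was kept. Differences were fitted with limma 3.58.1 in R 4.3.3 on the 19 arrays of the 4 replicated groups, 2-sided, with Benjamini-Hochberg adjustment over all genes; the single treated metastasis entered no test. Simulated data with the spread of these arrays were used to check the fit. The fit over all arrays recovered 68.0% of genes changed by log2 1 and 98.0% of those changed by log2 2. The fit without the near-mean arrays recovered 22.0% and 71.0%. Recovery of genes that differ in only some arrays of a group was not tested. Ahsg, high in metastasis 1 and 2 only, differed by 2.47 (SE 0.70) over all arrays and was not called. No arrays were duplicates.

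Named genes were the 10 with the smallest p in each direction in each form, leaving out predicted genes, small RNAs and receptors, the genes highest above the controls in each metastasis, the 3 with the smallest p in each of 33 lists, and a few fixed ones. The other genes with values were chosen after their values were seen. The members and lists were chosen with earlier results of these data known. Other engineered loci and 1 gene that the rule named are not reported here.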

Additional observations from a re-analysis of the deposited data

Results flagged for a closer look

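Of 300 sets of values examined, 1 array stood far from the rest of its group in 20. Chance does so in about 1 in 20 groups. The flags were uneven between the groups, though both were examined for every gene and list. In control bladder only the list means of control bladder 6 given below were flagged, and all other flags were in metastasis. The share over both groups therefore describes neither group. Gstm2, Cst12, Fgg, Fgb and Alb had been named because 1 metastasis stood far above the controls, which largely fixes their flags. The sets also share genes and are not independent. Metastasis 1 was high for Gstm2 at 12.00 (the other metastases 7.19 to 7.38), Cst12 at 8.83 (4.61 to 5.07), Cyp2e1 at 8.81 (5.75 to 6.26), Mki67 at 9.31 (6.57 to 6.73), Ccna2 at 7.85 (6.27 to 6.51) and H2-D1 at 9.48 (7.78 to 8.06). It was also high for the mean of the mitosis list at 6.76, of the replication list at 6.48, of antigen presentation at 7.24, of the unfolded protein response list at 7.71 and of the 2 engineered loci at 7.29. Metastasis 2 was high for Fgg at 10.49 (4.40 to 5.06), Fgb at 9.75 (4.65 to 5.52) and Alb at 9.53 (5.06 to 5.80). Metastasis 4 was apart for Bglap at 5.42, Fabp1 at 4.79, Cep76 at 5.17 and Krtap5-2 at 7.23, by smaller margins. Control bladder 6 was high for the mean of the T cell and cytotoxic list at 5.40 (the other controls 5.13 to 5.17) and of the neuroendocrine list at 4.81 (4.65 to 4.69).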

How the results depend on the processing

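Over all arrays, limma called 0 genes in every fit that left out 1 array and 1 gene with the 2 groups alone. The counts were also 0 after a second quantile normalization, centring, dropping dim genes and with array weights; the chemosensory mean as a covariate gave 3. Without the near-mean arrays the count was 5, and with 1 further array left out it ran from 5 to 64, the highest without bladder tumor 7 (14 higher and 50 lower), at 13 without metastasis 1 and 29 without metastasis 2. It was 12, 7 and 9 without bladder tumor 1, 2 and 6, and 6 without control bladder 2. Without the near-mean arrays it was 204 with the 2 groups alone and 263 with array weights, where 31 and 38 of the 117 named genes passed, and 75 genes were in both (36.8% and 28.5%). The cause was not tested. The chemosensory covariate, the array weights without the near-mean arrays, the omission of control bladder 1 and 2 together and that of each bladder tumor or treated bladder were chosen after seeing the data. The replicate numbers did not pair the samples, with correlations of -0.05, -0.14 and -0.10 for numbers 1, 2 and 4, and the replicate block left the count at 0 and turned Gpnmb to -0.03. The near-mean arrays alone called 0 genes, by limma, with 1581 under the unadjusted level.

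In the near-mean arrays alone 33 of 117 named genes changed sign. Those with a positive difference over all arrays read, on the log2 scale, -0.85 (C1qb), -0.37 (Cd68), -0.31 (Atp6v0d2), -0.26 (Cxcl13), -0.24 (Ctss, Fgb), -0.23 (Fgg, Lyz2), -0.18 (Msln), -0.17 (Calcr), -0.16 (Cyp2e1, Ehmt2), -0.15 (Alb, Itgam, Lyz1), -0.13 (Fn1), -0.11 (Upk3b), -0.10 (H2-K1), -0.09 (Wt1), -0.08 (Gpnmb, Mcm6), -0.07 (Mki67, Uty), -0.06 (Mmp9, Mmp12), -0.04 (Eif2s3y, Tmem255a) and -0.00 (Dnmt1). Those with a negative one read 0.34 (Avpr1a), 0.27 (Upk3a), 0.04 (Snai1), 0.03 (Cachd1) and 0.02 (Ptch1). Ehmt2 was -0.04 after a second quantile normalization. Without control bladder 1 and 2, Calcr was -0.01 and Ehmt2 -0.06.

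Leaving out 1 array, in either form, gave ranges that crossed 0 for 19 genes. Without metastasis 2 these were Alb (-0.19 to 4.29), Fgg (-0.14 to 5.98), Fgb (-0.16 to 4.97), Fga (-0.16 to 2.71), Hpx (-0.21 to 3.41), Apoa1 (-0.10 to 0.89), Gpnmb (-1.36 to 1.84), Upk3b (-0.46 to 1.73), Msln (-0.04 to 1.05), Sprr2g (-0.16 to 0.89) and Rb1 (-0.22 to 0.07). Without metastasis 1 they were Gstm2 (-0.40 to 4.24), Cyp2e1 (-0.06 to 2.71), Cst12 (-0.05 to 4.17), Ccl8 (-0.22 to 4.78), Cxcl9 (-0.07 to 2.43), Pdcd1 (-0.04 to 0.55) and Sftpc (-0.50 to 0.07). Ehmt2 ran from -0.05 to 0.37.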
